A study of Sus scrofa with 3 samples.

Results

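Liver RNA from 3 male pigs at postnatal day 90 was sequenced. Each of 3 breeds gave 1 library: Enshi black, Large White and Chinese wild boar. No treatment, genotype or transgene is named, and pooling of animals is not mentioned. That each library is 1 animal is read from the labels' numbers of pigs and libraries and is not spelled out there. The genes described here are those of complement, coagulation and the serpins, a large family of protease inhibitors and related proteins. They were chosen by a pattern on the pig gene symbol, without use of any measured value. It matched 51 of the 25322 gene IDs in the count tables, of which 11804 have a symbol. A further 14 symbols that fit the pattern are paired with IDs outside these tables and are not analysed here (SERPINA1, SERPINA4, SERPINF2, SERPINH1, SERPINB6, SERPINB9, SERPINB12, SERPINB13, C1QB, C1QC, C1R, C1S, F11 and F12). The pattern leaves out C3, the fibrinogen beta chain FGB and the lectin MBL2, which are treated below with the other genes of the pathways.

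The liver makes most of the proteins of both systems and secretes them into plasma. Complement is a chain of proteases that marks microbes for uptake and ends in a pore, the membrane attack complex. It can be started by antibody through C1q (the classical pathway), by sugar-binding lectins (the lectin pathway) or by spontaneous turnover of C3 (the alternative pathway). Coagulation is a second protease chain that turns prothrombin into thrombin and fibrinogen into fibrin. Plasmin later dissolves the clot, and serpins in the plasma hold these proteases in check by trapping them in a covalent complex.

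The libraries held 20654571 (Enshi black), 19982627 (Large White) and 20215871 (Chinese wild boar) gene counts. Levels are given as scaled CPM, the counts relative to a library total that was adjusted by TMM (trimmed mean of M-values) scaling, on which 1 count was worth 0.0463, 0.0512 and 0.0505 in the same order. They are not corrected for gene length, so levels of different genes are not compared as amounts of RNA molecules. Sums over several genes are sums of reads, in which long and highly expressed genes weigh most. A fold between 2 libraries is given with a 95% exact binomial interval in parentheses; intervals cover counting error alone. A difference of 2-fold or more is called only where the whole interval lies beyond 2-fold, which is referred to as passing the size rule. With 1 library per breed there is no spread between animals and no test, and breed, animal and library cannot be told apart. Of 8 hepatocyte markers, 7 had at least 152 CPM in every library, while the ID paired with APOA1 had at most 2 counts.

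Of the 51 genes, 44 reached at least 1 CPM in at least 1 library and 40 did so in all 3. The other 4 of these 44 (F13A1, SERPINI1, SERPINB7 and SERPINB8) entered only through the libraries in which they were higher. Among the 7 genes under the filter, SERPINA12, SERPINB5 and SERPINI2 had no count, SERPINB11 had 1 count in Large White, and SERPINB2 had 5 counts in Enshi black and none elsewhere. SERPINB10 had 15, 5 and 3 counts and SERPINE3 had 13, 4 and 2, in the order Enshi black, Large White and Chinese wild boar. Together the 51 genes took 4.27% (Enshi black), 4.33% (Large White) and 3.74% (Chinese wild boar) of gene counts.

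For 32 of the 44 expressed genes (72.7%) the highest of the 3 livers was less than 2-fold above the lowest. Between Enshi black and Large White, C7, PROS1, F3 and SERPINB7 passed the size rule as higher and C8G and F13A1 as lower. That is 6 of 44, or 13.6%, against 13.1% of all 13228 expressed genes (4.69% higher and 8.39% lower). Between Chinese wild boar and Large White, 1 gene (SERPINB7) passed as higher and 3, F8 and F13A1 among them, as lower. That is 4 of 44, or 9.09%, against 6.70% of all expressed genes (2.96% higher and 3.74% lower). Between Enshi black and Chinese wild boar, 1 of 44 genes passed, as higher, or 2.27% against 11.1% of all expressed genes (4.03% higher and 7.10% lower). The 3 comparisons share libraries, so these counts are not independent of each other. In all, 8 of 44 genes passed in at least 1 comparison, or 18.2% against 19.8% of all expressed genes.

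The ratio of the highest to the lowest library had a median of 1.54 over the 44 genes and 1.69 over all expressed genes. At 10 CPM or more in at least 1 library, 5 of 38 genes passed in some comparison, 13.2% against 18.4% of all genes at that level. In the same range 32 of 38 genes (84.2%) had a highest library less than 2-fold above the lowest, against 73.9% of all genes. The median log2 fold over the 44 genes was -0.10 for Enshi black over Large White, -0.11 for Chinese wild boar over Large White and 0.11 for Enshi black over Chinese wild boar, against 0.01, 0.00 and 0.01 over all expressed genes. The first of these medians was -0.01 with total counts in place of TMM, a scaling under which the median of all genes was 0.10. Of the 44 genes, 18 were highest in Large White (40.9%, against 33.1% of all expressed genes) and 10 in Chinese wild boar (22.7%, against 29.5%).

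**Figure D1:**
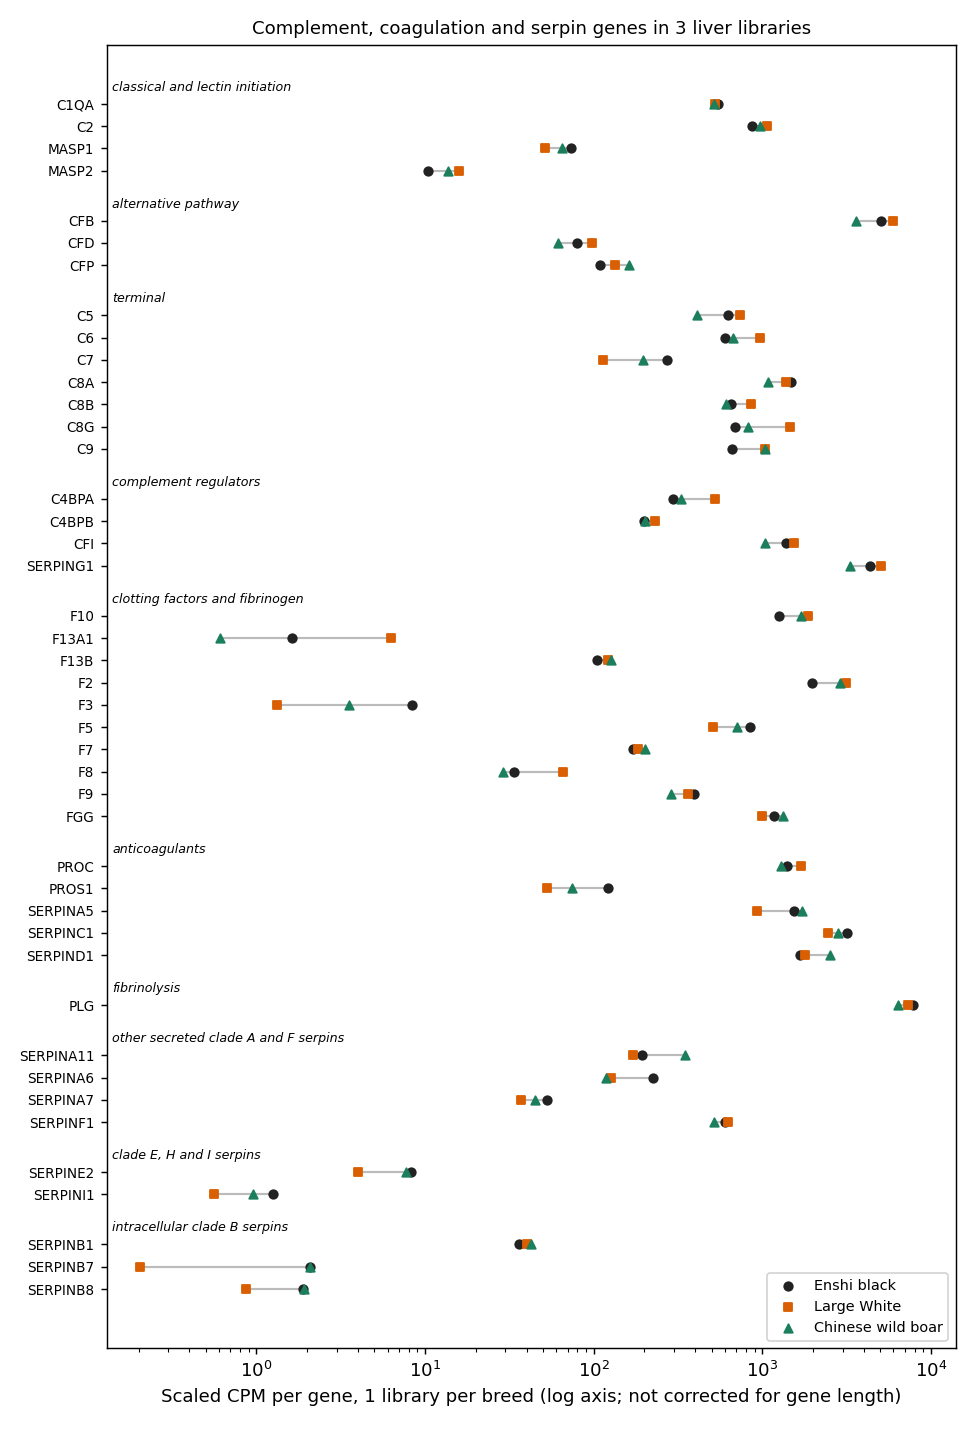
Scaled CPM (log axis) of 43 of the 44 expressed genes in each liver library, grouped by role, with a grey line from the lowest to the highest library. Most genes sit close together, while F13A1, F3, SERPINB7 and C7 are drawn out along the axis.

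The 4 genes of the pattern that start the classical and lectin pathways did not pass in any comparison, unlike the lectins MBL2 and FCN2 described below. C1QA, the A chain of the recognition protein C1q, had 548 (Enshi black), 522 (Large White) and 517 (Chinese wild boar) CPM. These 3 values lie within 1.06-fold of each other. C1q is made mainly by macrophages, whose 7 measured markers summed to 989, 1467 and 1253 CPM in the same order. CD14 gave most of these sums, and the other 6 markers summed to 128, 335 and 197 CPM, lowest in Enshi black. C2, which supplies the protease of the classical C3 convertase, had 864, 1074 and 972 CPM. It was lowest in Enshi black at 0.805 (0.789 to 0.821) of Large White. The lectin pathway proteases MASP1 and MASP2 had opposite orders. MASP1 had 73.3, 51.7 and 64.5 CPM, highest in Enshi black at 1.42-fold (1.31 to 1.54) over Large White. MASP2 had 10.4, 15.8 and 13.6 CPM, lowest in Enshi black at 0.661 (0.554 to 0.788) of Large White.

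Both proteases of the alternative pathway were lowest in Chinese wild boar. CFB, which forms the alternative C3 convertase, had 5084 (Enshi black), 5939 (Large White) and 3620.0 (Chinese wild boar) CPM. The Chinese wild boar value was 0.609 (0.604 to 0.615) of Large White, and it did not pass. CFD, the protease that activates factor B, had 79.3, 98.0 and 61.6 CPM, with the same order and a ratio of 0.629 (0.585 to 0.676). Properdin (CFP), which stabilises the convertase, went the other way with 109.7, 134 and 162 CPM. It was 1.21-fold (1.14 to 1.27) higher in Chinese wild boar than in Large White. CFB and C2 are adjacent genes in RefSeq's Sscrofa11.1 order, yet C2 in Chinese wild boar was 0.905 (0.887 to 0.923) of Large White.

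Of the 7 genes of the membrane attack complex, 2 passed, in opposite directions and both in Enshi black against Large White. That is 28.6%, against 13.1% of all expressed genes. C7 (ENSSSCG00000016859), which anchors the growing complex in the membrane, had 273 (Enshi black), 113 (Large White) and 197 (Chinese wild boar) CPM. Enshi black was 2.42-fold (2.30 to 2.54) higher than Large White, and Chinese wild boar 1.75-fold (1.66 to 1.84) higher without passing. C8G (ENSSSCG00000005840), the gamma chain of C8, had 686, 1460.3 and 821 CPM. It was 2.13-fold (2.09 to 2.17) below Large White in Enshi black, and with total counts the fold was 0.502 and no longer passed. In Chinese wild boar it was 0.563 (0.552 to 0.573) of Large White and did not pass.

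The other proteins of the complex did not pass in any comparison. C5, whose cleavage starts the assembly, had 629, 738 and 411 CPM (Enshi black, Large White, Chinese wild boar). C6, which binds C5b, had 605, 967 and 670.5 CPM, and C9, which forms the wall of the pore, had 663, 1038 and 1038 CPM. C5 was therefore low in Chinese wild boar, at 0.558 (0.543 to 0.573) of Large White, C9 was low in Enshi black, at 0.639 (0.626 to 0.653) of Large White, and C6 was low in both. C8A, the alpha chain of C8, had 1478, 1384 and 1084 CPM and C8B, the beta chain, 655, 863 and 608. Of these 7 terminal genes, 5 lay below 1 in each comparison with Large White. Over all 13228 expressed genes, 6531 did so for Enshi black and 6593 for Chinese wild boar. The median log2 fold of the 7 genes was -0.40 for Enshi black and -0.50 for Chinese wild boar.

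The 4 complement regulators of the pattern were all highest in Large White, as were 33.1% of all expressed genes, and none passed. Of regulators outside the pattern, vitronectin (VTN), which binds the terminal complex, was highest in Enshi black with 904, 579 and 475 CPM, and clusterin is described below. SERPING1, the C1 inhibitor that also blocks factor XIIa and kallikrein, had 4337 (Enshi black), 5041 (Large White) and 3324 (Chinese wild boar) CPM. CFI, the protease that degrades C3b and C4b, had 1390.4, 1545 and 1041 CPM. Both were lowest in Chinese wild boar, at 0.659 (0.653 to 0.666) and 0.674 (0.662 to 0.686) of Large White. C4BPA, the alpha chain of C4b-binding protein, had 297, 523 and 331 CPM, and Enshi black was 0.568 (0.550 to 0.586) of Large White. C4BPB, the beta chain, had 199, 231 and 201 CPM. RefSeq lists a second gene under the symbol C4BPA beside these, so the split of reads among copies is uncertain. The 4 genes lay below 1 against Large White under TMM, DESeq2 size factors and total counts alike, with a median log2 fold of -0.22 for Enshi black and -0.58 for Chinese wild boar under TMM. Of all 13228 expressed genes, 6531 and 6593 lay below 1 in these comparisons under TMM.

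**Figure D2:**
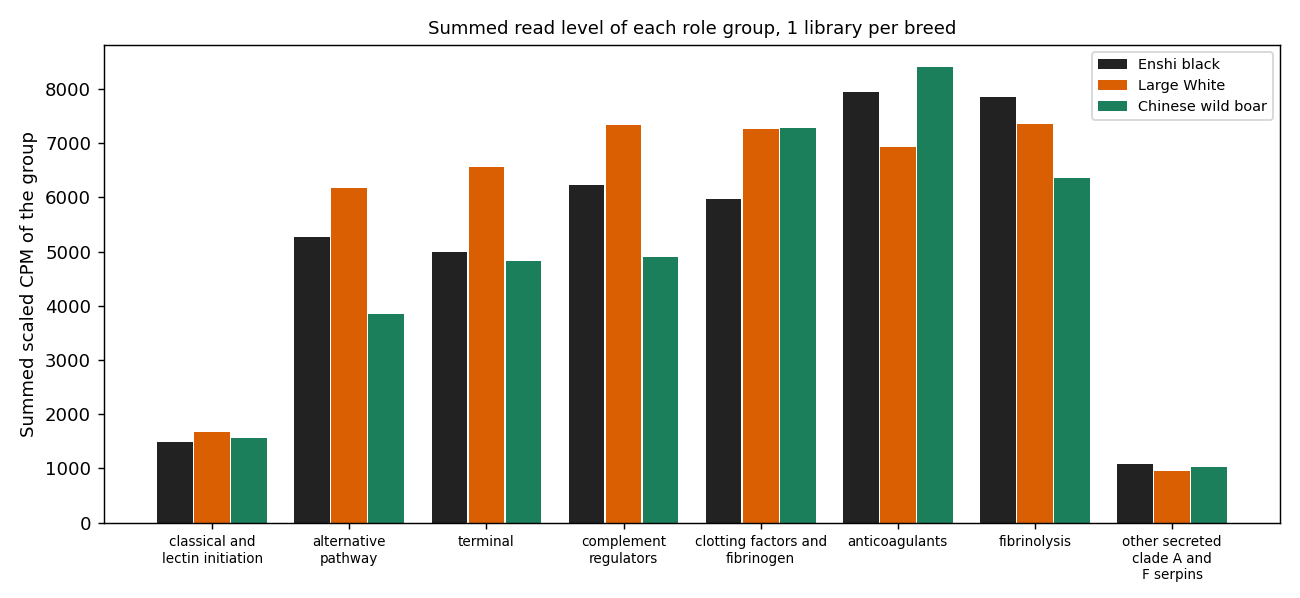
Summed scaled CPM of the genes of each role group in the 3 libraries (bars start at 0; the clade B group and the clade E, H and I group, which sum to at most 46.5 CPM, are left out). The alternative, terminal and regulator groups are highest in Large White. The anticoagulant group, which includes the protein C inhibitor SERPINA5, is lowest there.

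Summed over each group, reads of the alternative pathway came to 5273 (Enshi black), 6172 (Large White) and 3843 (Chinese wild boar) CPM, most of them from CFB. Terminal genes summed to 4989.5, 6563 and 4830.5 CPM and regulators to 6224, 7339 and 4897. SERPING1 alone gave 4337, 5041 and 3324 CPM of the regulator sums. The genes grouped as anticoagulants had a different order, with 7945, 6923 and 8398 CPM. The protein C inhibitor SERPINA5, which also acts against an anticoagulant pathway, gave 1549, 936 and 1712 of these. Large White was thus highest in the first 3 sums and lowest in the last.

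Among the clotting factors of the pattern, F3, F13A1 and F8 passed in at least 1 comparison. F3, tissue factor, the membrane protein that starts coagulation, had 180 (Enshi black), 26 (Large White) and 70 (Chinese wild boar) counts, or 8.34, 1.33 and 3.54 CPM. F3 (ENSSSCG00000022447) was 6.27-fold (4.14 to 9.86) above Large White in Enshi black. Its fold in Chinese wild boar over Large White, 2.66 (1.67 to 4.35), and in Enshi black over Chinese wild boar, 2.36 (1.78 to 3.15), did not pass. Tissue factor is typically made by stromal cells around vessels. The 7 markers of stellate cells and fibroblasts summed to 1066, 334 and 558 CPM, with the same order of libraries as F3. COL3A1 alone gave 837, 232 and 383 of these sums. Of the 6 expressed markers, COL1A2, COL3A1, DCN and LOX passed as higher in Enshi black against Large White. ACTA2 was 1.36-fold (1.25 to 1.49) higher, while PDGFRB went the other way at 0.885 (0.760 to 1.03). The seventh, LUM, had 13, 0 and 7 counts, and no marker was at 0 in all libraries. The hepatocyte markers summed to 108449, 61426 and 92246 CPM, the same order, of which ALB alone gave 66508, 25310.1 and 53648. The other expressed hepatocyte markers did not have this order. TTR and CPS1 were highest in Large White, AHSG and ARG1 were highest in Chinese wild boar, and TF and APOB were lowest in Chinese wild boar. The order of libraries seen for F3 was shared by 10 of the 44 expressed genes (C7, F3, F5, MASP1, PROS1, SERPINA7, SERPINB7, SERPINC1, SERPINE2 and SERPINI1), or 22.7% against 20.6% of all expressed genes. The part of either cell type in these differences was not tested. In RNA from whole liver, fewer cells of a type and less RNA per cell cannot be told apart.

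F13A1 (ENSSSCG00000024310), the catalytic subunit of the fibrin cross-linking factor XIII, is made by macrophages and platelet precursors. It had 35 (Enshi black), 122 (Large White) and 12 (Chinese wild boar) counts, or 1.62, 6.24 and 0.606 CPM. It was 3.85-fold (2.62 to 5.78) lower in Enshi black and 10.3-fold (5.68 to 20.5) lower in Chinese wild boar than in Large White. The other subunit, the hepatocyte carrier F13B, had 104, 121 and 127 CPM and did not pass in any comparison. All 7 expressed macrophage markers lay below 1 in Enshi black against Large White and 6 of 7 in Chinese wild boar, and MARCO passed as lower in both. Between Enshi black and Chinese wild boar the markers and F13A1 went opposite ways. F13A1 was 2.67-fold (1.36 to 5.66) higher in Enshi black without passing, while all 7 markers lay below 1 and CSF1R passed as lower. The 1 measured platelet marker, TUBB1, had 1.30, 3.02 and 1.21 CPM. The part of these cells in the F13A1 difference was not tested.

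F8 (ENSSSCG00000012822), the cofactor absent in haemophilia A, is made mainly by endothelial cells. It had 729, 1286 and 570 counts, or 33.8, 65.8 and 28.8 CPM, in Enshi black, Large White and Chinese wild boar. It passed as 2.28-fold (2.07 to 2.53) lower in Chinese wild boar than in Large White. In Enshi black it was 1.95-fold (1.78 to 2.14) lower, just short of passing. The 6 measured endothelial markers summed to 575, 804 and 429 CPM, of which STAB1 alone gave 186, 499 and 168, while PECAM1 had 111, 95.6 and 108 CPM. In Enshi black against Large White 4 of the 6 lay above 1, opposite to F8, with FLT1 at 1.75-fold (1.54 to 1.98) and KDR at 1.46-fold (1.39 to 1.54). STAB1 and TEK lay below 1, as F8 did. STAB1, at 2.68-fold (2.59 to 2.79) lower, was the only marker of the 6 that passed. In Chinese wild boar against Large White 2 lay above 1 and 4 below, and only STAB1 passed, as 2.97-fold (2.85 to 3.09) lower. None of the 6 was at 0 in all libraries, and their part in the F8 difference was not tested.

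The 7 other clotting genes of the pattern stayed within 2-fold, unlike the fibrinogen chain FGB outside it, which is described below. F2, prothrombin, had 1971 (Enshi black), 3149 (Large White) and 2895 (Chinese wild boar) CPM. F10, the protease that cleaves prothrombin, had 1256, 1859.9 and 1693 CPM. Both were lowest in Enshi black, at 0.626 (0.618 to 0.634) and 0.676 (0.665 to 0.686) of Large White. F5, the cofactor of F10, had 847, 512 and 712 CPM, the opposite order, and was 1.65-fold (1.61 to 1.69) above Large White in Enshi black. F7, the protease activated by tissue factor, had 171, 184 and 200.4 CPM and F9, the protease absent in haemophilia B, 393, 363 and 289. F7 lies next to F10 in RefSeq's gene order, and its 3 values span 1.17-fold against 1.48-fold for F10. FGG, the fibrinogen gamma chain, had 1176, 993 and 1331 CPM, highest in Chinese wild boar at 1.34-fold (1.32 to 1.36) over Large White. Over the 10 clotting genes, 1 passed as higher and 1 as lower in Enshi black against Large White, and 2 as lower in Chinese wild boar against Large White. Each is 2 of 10 genes, against 13.1% and 6.70% of all expressed genes.

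**Figure D3:**
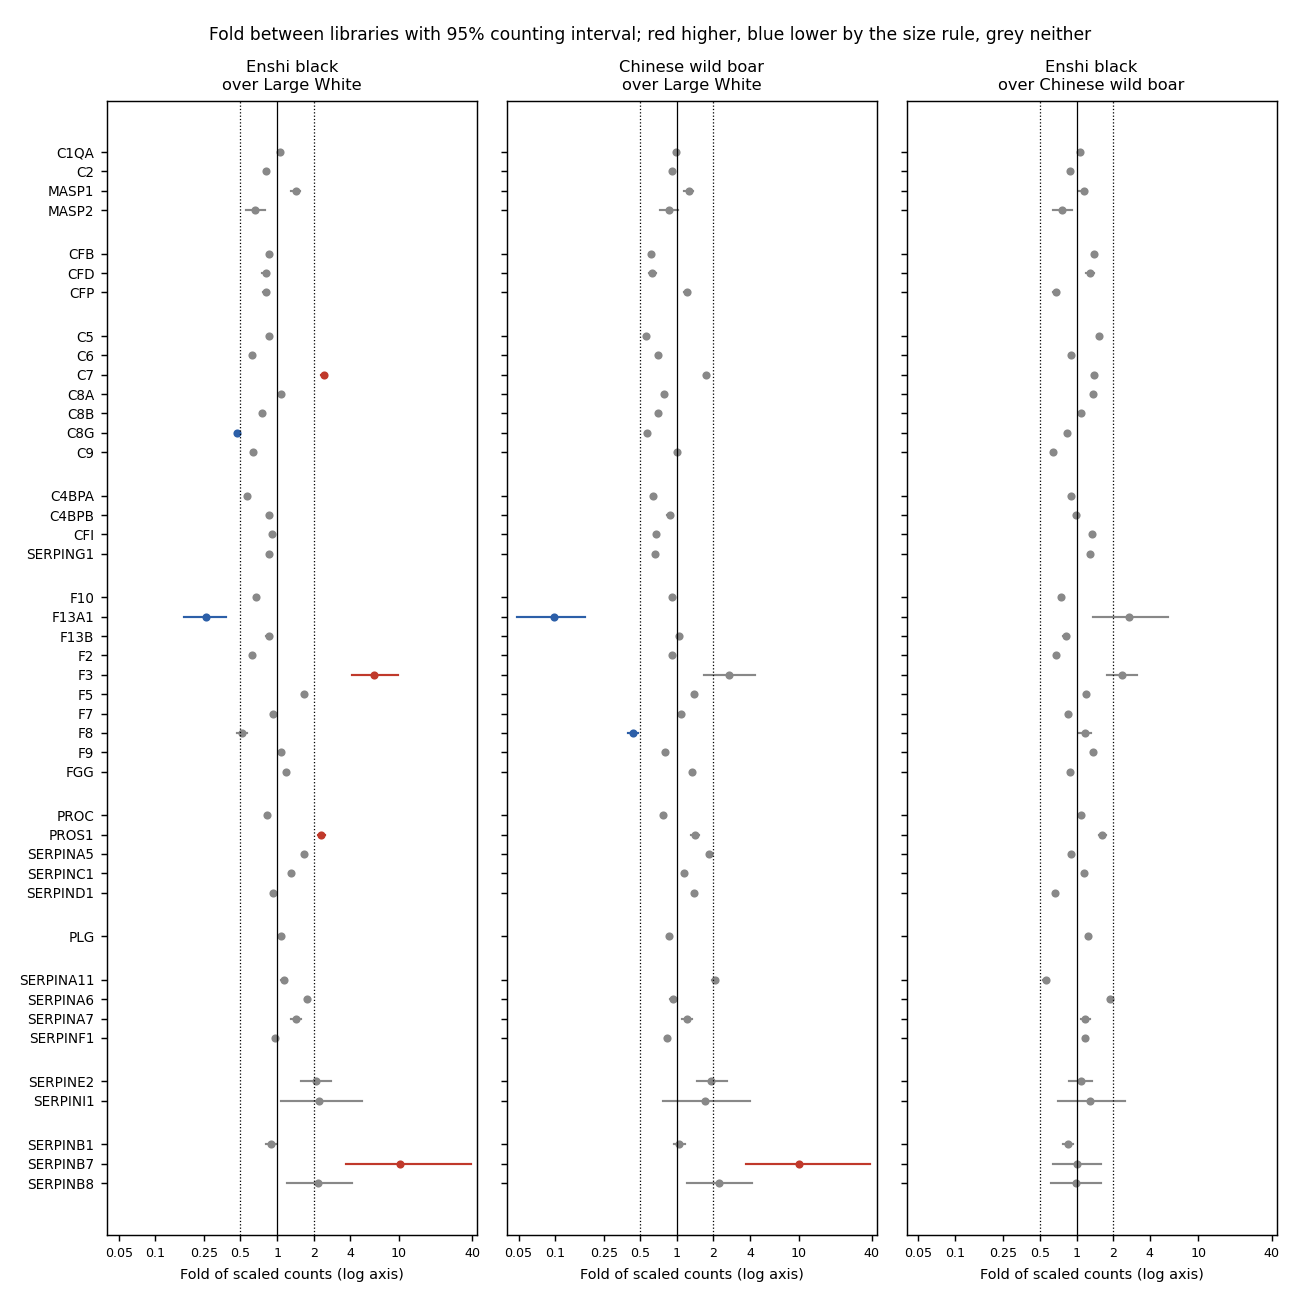
Fold of scaled counts (log axis) for 43 of the 44 expressed genes in the 3 pairs of libraries, with its 95% counting interval, and dotted lines at 0.5 and 2. Coloured genes passed the size rule: 6 of those drawn for Enshi black over Large White, 3 for Chinese wild boar over Large White and 0 for Enshi black over Chinese wild boar.

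Of the 5 measured genes grouped as anticoagulants, 3 were lowest in Large White, or 60.0% against 33.9% of all expressed genes. These 3 are PROS1, SERPINC1 and SERPINA5, and SERPINA5, as the protein C inhibitor, also acts against the protein C pathway. PROS1 (ENSSSCG00000025463), protein S, the cofactor of activated protein C, had 121 (Enshi black), 52.6 (Large White) and 74.4 (Chinese wild boar) CPM. It was 2.31-fold (2.15 to 2.48) above Large White in Enshi black and passed. Its fold in Chinese wild boar over Large White was 1.41 (1.30 to 1.53). SERPINA5, the protein C inhibitor, had 1549, 936 and 1712 CPM and was 1.83-fold (1.80 to 1.86) higher in Chinese wild boar than in Large White without passing. SERPINC1, antithrombin, the main inhibitor of thrombin and factor Xa, had 3202, 2445 and 2816 CPM. PROC, the protein C zymogen, was instead highest in Large White with 1395, 1686 and 1288 CPM. SERPIND1, heparin cofactor II, had 1678, 1803 and 2508 CPM, highest in Chinese wild boar at 1.39-fold (1.37 to 1.41) over Large White.

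In the fibrinolytic system, PLG, the plasmin precursor, had 7826 (Enshi black), 7344 (Large White) and 6348 (Chinese wild boar) CPM, a span of 1.23-fold. It did not pass in any comparison.

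The remaining secreted serpins of clades A and F include hormone carriers. SERPINA6, the cortisol carrier of plasma, had 225 (Enshi black), 127 (Large White) and 119 (Chinese wild boar) CPM. SERPINA6 was 1.77-fold (1.69 to 1.86) and 1.89-fold (1.80 to 1.98) higher in Enshi black than in the others, without passing. SERPINA7, the thyroxine carrier, had 53.1, 37.0 and 45.0 CPM. SERPINA11, whose role is not well defined, had 193, 170.4 and 348 CPM, and its fold in Chinese wild boar over Large White, 2.04 (1.96 to 2.13), came just short of passing. SERPINF1, pigment epithelium-derived factor, which inhibits vessel growth, had 604, 628 and 517 CPM. SERPINA6, SERPINA11 and SERPINA5 are close neighbours in RefSeq's gene order. They were highest in different libraries, SERPINA6 in Enshi black and the other two in Chinese wild boar.

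The measured serpins of clades B, E and I had few reads in liver. SERPINB7 (ENSSSCG00000004891), an intracellular serpin best known from skin, had 45 (Enshi black), 4 (Large White) and 41 (Chinese wild boar) counts, or 2.09, 0.205 and 2.07 CPM. It was 10.2-fold (3.71 to 39.0) and 10.1-fold (3.67 to 38.9) higher in Enshi black and Chinese wild boar than in Large White, both of which passed. The intervals are wide because Large White had only 4 counts. KRT4, the 1 measured marker of keratinised or mucosal epithelium, had no count in any library. SERPINB1, an inhibitor of neutrophil elastase, had 36.0, 40.3 and 42.4 CPM, and SERPINB8 had 1.90, 0.870 and 1.92. SERPINE2, protease nexin 1, had 8.29, 3.99 and 7.68 CPM and SERPINI1, neuroserpin, 1.25, 0.563 and 0.960. Large White was lowest for SERPINB7, SERPINB8, SERPINE2 and SERPINI1, of which only SERPINB7 passed, while SERPINB1 was lowest in Enshi black. Of all expressed genes, 33.9% were lowest in Large White. SERPINB7, SERPINB8 and SERPINI1 entered the expressed set only through libraries in which they were higher. Their low place in Large White is therefore tied to that filter.

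Several of these proteins are built from chains of different genes or act in fixed pairs, and the ratio of 2 counts in the same library needs no scaling. Such a ratio is not one of molecules, since gene lengths differ, but its change between libraries is free of length. The 9 pairs were chosen after the values of single genes were seen, and intervals again cover counting error only. Fibrinogen needs its alpha, beta and gamma chains in equal number. The FGG to FGB ratio was 1.94 (Enshi black), 0.362 (Large White) and 0.567 (Chinese wild boar), a 5.36-fold (5.22 to 5.51) difference between Enshi black and Large White. FGB itself had 605, 2740.3 and 2346 CPM and was 4.53-fold (4.44 to 4.62) below Large White in Enshi black, while FGG was not lower.

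The chains of C8 also departed from a common ratio, though by less. The C8A to C8B ratio was 2.26, 1.60 and 1.78 in Enshi black, Large White and Chinese wild boar, and the C8G to C8B ratio 1.05, 1.69 and 1.35. Enshi black and Large White therefore lay at opposite ends of both ratios, with changes of 1.41-fold (1.37 to 1.45) and 0.620 (0.601 to 0.638). C8A and C8B are adjacent genes, while C8G is not among their neighbours. The C4BPA to C4BPB ratio was 1.49, 2.26 and 1.64, highest in Large White. The F13A1 to F13B ratio was 0.0156, 0.0517 and 0.00478, a 10.8-fold (5.97 to 19.6) difference between Large White and Chinese wild boar.

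Among partners that act together, the ratio of C7 to C6 was 0.451 (Enshi black), 0.117 (Large White) and 0.294 (Chinese wild boar), a 3.87-fold (3.66 to 4.08) difference between Enshi black and Large White. The ratio of the thrombin precursor F2 to its inhibitor SERPINC1 was 0.616, 1.29 and 1.03. It was 2.09-fold (2.06 to 2.13) above Enshi black in Large White, although neither gene passed by itself. The ratio of the cofactor F5 to its protease F10 was 0.674, 0.275 and 0.421, and that of PROS1 to PROC 0.0871, 0.0312 and 0.0578. Both ran from Enshi black at the top to Large White at the bottom, with changes of 2.45-fold (2.38 to 2.52) and 2.79-fold (2.59 to 3.01).

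**Figure D4:**
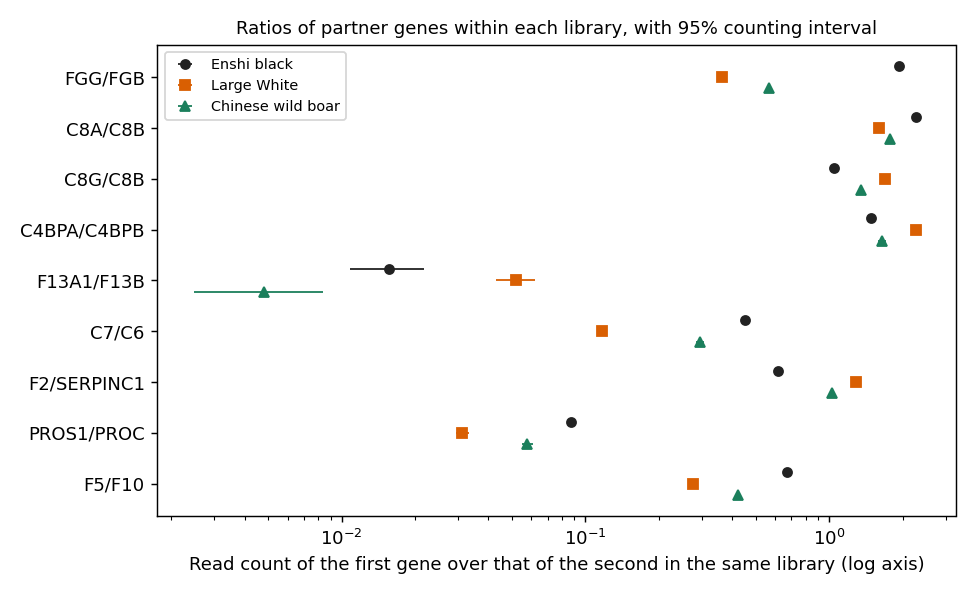
Count of the first gene over that of the second within each library (log axis), with 95% counting intervals, for 9 pairs of partner genes. Enshi black and Large White lie at opposite ends of every pair except F13A1/F13B, where Chinese wild boar is lowest. The pairs were chosen after the values of single genes were seen, so this pattern is not independent of the choice.

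The other genes of the pathways, from a list of 61 symbols, had 36 matched IDs and 33 expressed. Of these 33, 1 passed as higher and 3 as lower in Enshi black against Large White (median log2 fold 0.04), 2 and 3 between Chinese wild boar and Large White (-0.14), and 2 and 2 between Enshi black and Chinese wild boar (0.04). Those counts are 12.1%, 15.2% and 12.1% of the list, against 13.1%, 6.70% and 11.1% of all expressed genes. The lectin MBL2, a starter of the lectin pathway, had 236 (Enshi black), 48.4 (Large White) and 225 (Chinese wild boar) CPM, and was higher in both than in Large White. MASP1 and MASP2, the proteases it activates, did not pass. C3, on which all pathways converge, had 17267, 16809 and 6329 CPM and was 2.66-fold (2.64 to 2.67) lower in Chinese wild boar than in Large White. The ficolin FCN2, another lectin, had 289, 229.9 and 101 CPM and was 2.27-fold (2.15 to 2.39) lower there. C3 and FCN2 thus passed as lowest in the library where CFB, CFD and C5 were also lowest without passing. This set was picked by its values, and other complement genes did not share the order. CFP was highest in Chinese wild boar, C9 was level there with Large White, and MBL2 was higher there than in Large White. Of the pattern's genes, 2 of 3 in the alternative pathway and 3 of 7 terminal genes were lowest in Chinese wild boar. Over the 44 expressed genes the share was 36.4%, against 29.8% of all expressed genes.

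Clusterin (CLU), which blocks assembly of the membrane attack complex, had 1912, 6999 and 2618 CPM and passed as lower in Enshi black and in Chinese wild boar, each against Large White. PROCR, the endothelial receptor of protein C, had 2.18, 2.30 and 9.15 CPM and was 3.97-fold (2.85 to 5.64) higher in Chinese wild boar than in Large White, while PROC was not higher. AGT, angiotensinogen, a serpin without inhibitory activity whose symbol lies outside the pattern, had 545, 1639.9 and 1051 CPM. AGT was 3.01-fold (2.95 to 3.08) below Large White in Enshi black. GGCX, the enzyme that carboxylates prothrombin, factors VII, IX and X, protein C and protein S, had 112, 124 and 142 CPM and did not pass.

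Of 12 measured transcription factors and cytokine receptors of the hepatocyte, none passed against Large White, where 13.1% (Enshi black) and 6.70% (Chinese wild boar) of all expressed genes did. Between Enshi black and Chinese wild boar 1 of 12 passed, as lower, or 8.33% against 11.1%. HNF4A, a main regulator of clotting factor genes, had 746 (Enshi black), 588 (Large White) and 723 (Chinese wild boar) CPM. STAT3, which carries the interleukin-6 signal of the acute phase response, had 260.3, 347 and 283 CPM and the receptor subunit IL6R 86.7, 92.0 and 85.8.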

How the data were processed

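The deposited tables hold read counts per Ensembl gene ID, not normalized, 1 table per library. Per the submitters' processing notes, the build was Sscrofa10.2 and the tools included HTSeq 0.6.1, TopHat2 2.1.0 and edgeR 3.16.3, whose roles and order are not stated. The sources used here do not give the annotation release, the strand setting or how reads with several alignments were treated, so copies, overlapping and antisense genes are uncertain. The 5 rows that name no gene were left out; reads with no feature made up 18.9% to 22.0% and ambiguous reads 1.89% to 2.49% of reads in genes or these classes.

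The 13228 genes that reached 1 CPM in any library were kept, and TMM factors (1.04, 0.978 and 0.979) came from edgeR 4.0.16 in R 4.3.3. Folds carry 95% Clopper-Pearson intervals (Python 3.11.15, scipy 1.17.1, numpy 2.4.6, pandas 2.3.3), and list medians use a prior count of 2. Intervals of a change in a ratio between libraries use a normal approximation on the log scale. No molecular identifiers are described, so intervals cover counting error only. Simulated data served as a test of the rule. Alternatives were DESeq2 1.42.0 size factors, total counts, other filters, bounds of 1.5 and 4, a 99.9% interval, a prior count of 0.5, the mean, and an assumed coefficient of variation between animals of 0.2 or 0.4.

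The genes, lists and pairs were chosen with earlier results of these data known. By rule, every gene that passed in any comparison and the 3 of highest mean CPM per role group were named; the other genes of the pattern were named after their values were seen, to account for the rest of the 51. Results of 1 gene of the pattern and 1 transcription factor are not reported here, though both stay in the counts, sums and medians. Of the other pathway genes, up to 6 that passed per comparison were named; GGCX, VTN and the transcription factors, receptors and cell markers that are named, were chosen after their values were seen. RefSeq names and gene order are from Sscrofa11.1, and no coordinates are reported because no genome of the files' build was used. Figures were drawn with matplotlib 3.10.9.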

Additional observations from a re-analysis of the deposited data

How the results depend on the processing

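With 1 library per breed, no result has a check across animals. Of 99 folds of 33 genes named by rule, DESeq2 size factors and no filter changed no call, total counts 1 (C8G) and the stricter interval 2 (F8 among them, in Chinese wild boar against Large White). A bound of 1.5 added 18 calls and a bound of 4 ended 9. An assumed coefficient of variation of 0.2 ended 7 calls and 0.4 ended 8, leaving SERPINB7 and F3, then SERPINB7 alone, for Enshi black against Large White, and SERPINB7 and F13A1 for Chinese wild boar against Large White; these animals' own variation is unknown. No fold changed direction among calls; with total counts SERPINF1, SERPINB8 and C4BPB changed side of 1 in a comparison with Enshi black.

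For Enshi black against Large White, the 4 higher and 2 lower genes became 2 and 1 at 10 CPM, 8 and 7 with a bound of 1.5, 1 and 0 with a bound of 4, 2 and 0 with a coefficient of 0.2 and 1 and 0 with 0.4, and with total counts 1 was lower. Its median of -0.10 was -0.01 with total counts, -0.16 at 10 CPM and 0.11 as a mean. For Chinese wild boar against Large White, the 1 higher and 3 lower genes became 0 higher at 10 CPM, 5 and 8 with a bound of 1.5, 0 and 1 with a bound of 4, and 1 lower with the stricter interval and with either coefficient. For Enshi black against Chinese wild boar, the 1 higher and 0 lower became 4 and 2 with a bound of 1.5, and 0 higher with a bound of 4 and with either coefficient. Stricter settings count fewer genes by construction. Over all genes, a bound of 1.5 gave 1531 higher and 1972 lower for the first comparison against 621 and 1110, 979 and 1141 against 391 and 495 for the second, and 1303 and 1673 against 533 and 939 for the third; a coefficient of 0.4 gave 127 and 405, 75 and 103, and 112 and 364. No paired analysis was possible because the labels give no replicate numbers and each breed has 1 library. Depth limits SERPINB7, SERPINI1, F13A1, SERPINB8 and F3, whose lowest libraries had 4 to 26 counts.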
